A study of Mus musculus with 4 samples.

Results

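Ppy+ cells are the pancreas cells to which the study's authors gave the deposited subtype name Ppy+, 140 of the 1269 enteroendocrine cells and of the 21140 cells in all. They were taken by that name alone, from raw counts of unique molecular identifiers (UMIs, each standing for 1 captured transcript), and described per mouse: 40 cells in 2-week mouse 1, 20 in 2-week mouse 2, 45 in 4-week mouse 1 and 35 in 4-week mouse 2. The mice were Ptf1aCre-ERTM;ROSAYFP/+ animals backcrossed into CD-1, aged 10 weeks at injury. All 4 had received tamoxifen (5 mg per day) by gavage, which switches on Cre under the acinar gene Ptf1a and so marks acinar cells and their descendants with EYFP, and then caerulein, a cholecystokinin analog that injures the exocrine pancreas, for 2 weeks (2 mice) or 4 weeks (2 mice). No uninjured or untraced mouse was analysed here, so every group shared the tracing and the injury. EYFP-positive cells were sorted and sequenced in droplets from their 3′ ends. Each of the 140 cells held at least 1 EYFP UMI (median 4), as did all 13362 cells with a deposited type, against 7.87% of the cells without one. Types were deposited for a set that the authors labelled YFP+, so these shares follow that selection and are no evidence of where a cell came from.

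Pancreatic polypeptide (Ppy) and peptide YY (Pyy) belong to the PP-fold family of short amidated peptides, together with neuropeptide Y. In the healthy pancreas Ppy marks the gamma cell of the islet, whose hormone slows pancreatic secretion and food intake. Pyy is known best from the L cells of the gut, which release it with glucagon-like peptides after a meal, and it is also found in islets. Enteroendocrine cells package such peptides in granules with granins, cut the precursors with prohormone convertases, and often carry more than one hormone.

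The 2 genes lie side by side on the minus strand of mouse chromosome 11 (GRCm38, GENCODE vM21): Ppy (ENSMUSG00000017316) at 102099930 to 102101319 and Pyy (ENSMUSG00000017311) at 102106676 to 102107832, with 5356 bases between them. The coding stretches of the mature peptides, 36 codons each, are shown because the cells are named for one gene but carry both. Capitals mark bases that are the same in both.
Ppy: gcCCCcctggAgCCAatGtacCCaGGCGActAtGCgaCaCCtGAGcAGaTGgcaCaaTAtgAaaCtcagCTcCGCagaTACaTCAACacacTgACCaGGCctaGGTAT
Pyy: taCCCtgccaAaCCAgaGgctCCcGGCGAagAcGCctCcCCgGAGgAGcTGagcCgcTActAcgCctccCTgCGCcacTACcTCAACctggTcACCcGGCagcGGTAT
The stretches share 58 of 108 bases (53.7%) and 8 of 36 codons, with no identical run longer than 5 bases. Over whole transcripts the longest stretch that any of 2 Ppy and 3 Pyy transcripts share is 10 bases, so a read of one gene does not match the other along its length.

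The 250 bases upstream of each start are shown because Pyy was present in every cell and Ppy was not. They are RefSeq sequence on GRCm38.p6, minus strand, chr11:102101320-102101569 for Ppy and chr11:102107833-102108082 for Pyy (the first of 2 listed starts). Capitals mark a core promoter motif (TATAAA) upstream of Ppy and, upstream of Pyy, the E box (CANNTG) that factors such as NEUROD1 and NEUROG3 can bind, searched on both strands.
Ppy: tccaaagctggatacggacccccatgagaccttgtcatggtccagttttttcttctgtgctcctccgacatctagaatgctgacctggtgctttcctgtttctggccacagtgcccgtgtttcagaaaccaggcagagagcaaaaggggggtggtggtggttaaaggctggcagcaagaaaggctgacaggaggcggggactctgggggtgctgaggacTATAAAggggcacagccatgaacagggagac
Pyy: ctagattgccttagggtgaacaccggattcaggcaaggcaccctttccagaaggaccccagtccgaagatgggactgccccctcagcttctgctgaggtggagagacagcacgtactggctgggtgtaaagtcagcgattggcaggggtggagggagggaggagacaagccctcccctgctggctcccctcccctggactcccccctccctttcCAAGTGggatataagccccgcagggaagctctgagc
TATAAA occurs once upstream of Ppy and in 12.4% of 32851 upstream windows of this length, and CANNTG once upstream of Pyy and in 66.2% of them. TAAT, the core of many homeodomain sites, is in neither window and in 54.9% of all. Only exact matches were searched, so the near match tataag close to the Pyy start is unmarked. These matches describe the letters only.

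The median UMI count per Ppy+ cell lay between 13501 and 18477 in the 4 mice, and the sums per mouse between 441914 and 626594 UMIs. The mice are separate animals, 1 library each. Their share of enteroendocrine cells was 14.9% in 2-week mouse 1 (exact Clopper-Pearson 95% interval 10.8% to 19.7%, which covers counting error only) and 5.15% in 2-week mouse 2 (3.18% to 7.85%). In the 4-week mice it was 14.52% (10.8% to 18.9%) and 11.6% (8.21% to 15.7%). 2-week mouse 2 stood lowest, and the shares of the 2 times overlapped: 10.0% ± 6.87 against 13.1% ± 2.07 (SD, n = 2 each; 2-sided exact permutation p = 1, where 2 against 2 mice can reach no less than 0.333). Without 2-week mouse 2 the 4-week mean was 1.82 percentage points below the other 2-week mouse (difference -1.82). The summed acinar level was also highest there, through few cells: 3 of its 20 Ppy+ cells held over 10% acinar enzyme UMIs, up to 34.5%, while its median cell held 0.342%, the lowest of the mice (1.39%, 0.481% and 0.857% in the others). Over 27 acinar enzyme genes its Ppy+ cells summed to 50673 CPM (a gene's UMIs scaled to a fixed library total) against 11875 to 26371 CPM in the other mice, and over 7 Reg genes to 15415 against 1148 to 3099 CPM. The 16 tuft genes summed to 525 CPM there and 699 CPM in 4-week mouse 1, against 8.44 and 26.8 in the other mice, and fibroblast genes were highest in 2-week mouse 1 (233 CPM against 0 to 15.8). Of the 140 cells, 8 held over 10% acinar enzyme UMIs, 3 held 3 or more UMIs each of 3 or more tuft markers, and 5 held over 2 times the median UMI count of their mouse and subtype. No doublet caller was run. The barcode of 1 Ppy+ cell also occurs in another mouse, and none is shared between Ppy+ cells of different mice.

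The label was met by Pyy in every cell and by Ppy in part of them. Pyy ranged from 31 to 6372 UMIs per cell with a median of 1487, so all 140 cells had at least 10. Ppy had a median of 497 UMIs and reached 6556, but 101 of 140 cells (72.1%) had any, and 88 (62.9%) had at least 10. Of the cells in between, 5 held 2 to 9 Ppy UMIs; the highest cell under 10 had 8 and the lowest cell above had 11. The name Ppy+ thus covers 52 cells that were Pyy-positive with fewer than 10 Ppy UMIs. Free RNA in the droplets bounds what such low counts can mean: of 495 cells with UMIs of Cd79a, Cd79b and Ptprc and no deposited type (B cell-like, median 3539 UMIs against 14259 in Ppy+ cells), 6.67% had a Ppy UMI, 3 at most, and 10.7% a Pyy UMI, with 133 in 1 cell. When each cell was reduced to 3000 UMIs, which left out 3 Ppy+ and 136 B cell-like cells, 65.6% of Ppy+ cells and 4.44% of B cell-like cells kept a Ppy UMI.

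**Figure D1:**
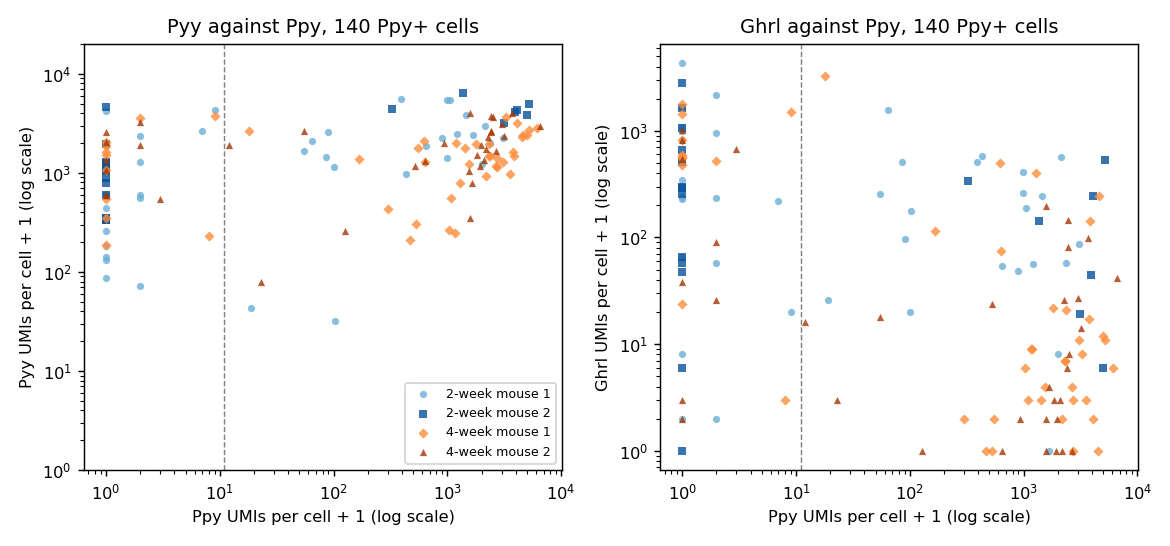
Each point is 1 of 140 Ppy+ cells, with Ppy UMIs plus 1 on the horizontal axis and Pyy (left) or Ghrl (right) UMIs plus 1 on the vertical axis, all on log scales, coloured by mouse; the dashed line stands at 10 Ppy UMIs. All cells have at least 31 Pyy UMIs, while 52 cells lie left of the line and 88 right of it.

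Pyy made up a median of 11.9% of a cell's UMIs and Ppy 4.30%, with Ppy at a median of 0.412% and 0% in the 2-week mice. Together they made up a median of 20.7% of a cell's UMIs, from 0.619% to 47.9%. That median was 13.1% and 8.38% in the 2-week mice, against 25.1% and 21.6% later, with no overlap. Summed per mouse, Pyy stood at 118564, 104041, 111854 and 136763 CPM (2-week mice first, mouse 1 before mouse 2, as in every series of 4 values below). The ranges of the 2 times overlapped. Ppy stood at 33477, 52071, 124661 and 102711 CPM, and both 4-week mice were above both 2-week mice.

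Among the other enteroendocrine subtypes 10 or more Ppy UMIs were rare, whereas Pyy was shared with the somatostatin-producing Delta cells. At least 10 Ppy UMIs were found in 8 of 144 Delta cells and in 0 of 217 ECL, 377 Epsilon and 391 progenitor cells. Of tuft cells 3 of 1280 had as many, and of acinar cells 5 of 3698. Any Ppy UMI was found in 18.1% of Delta and 16.7% of acinar cells. Of the cells without a deposited type, 24 held at least 100. At least 10 Pyy UMIs were found in 116 of 144 Delta cells (80.6%), 24 ECL cells (11.1%) and 13 Epsilon cells (3.45%). In summed counts Pyy was 17826 ± 6077 CPM in Delta cells (SD, n = 4), 498 CPM in ECL and 610 CPM in Epsilon cells. These levels are part of what the subtype names rest on and carry no test.

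Many Ppy+ cells held a further hormone. Ghrl, the ghrelin gene that names the Epsilon subtype, reached 10 UMIs in 93 of 140 Ppy+ cells: 87.5%, 85.0%, 51.1% and 51.4% of the cells by mouse. Of B cell-like cells 38.4% had a Ghrl UMI, but none more than 7, and 73 of 144 Delta cells (50.7%) had at least 10. Gip, the incretin of gut K cells, reached 10 UMIs in 47 cells (15, 7, 10 and 15 by mouse), against 56 of 217 ECL cells (25.8%) and 11 Delta cells. Cck, the hormone that drives acinar secretion and gallbladder emptying, did so in 22 cells. Gcg, which encodes glucagon and the glucagon-like peptides, did so in 13 cells, 9 of 45 and 4 of 35 at 4 weeks. It had no UMI in any 2-week Ppy+ cell, where a count of 0 allows a share of cells with a UMI of up to 7.5% in mouse 1 and 15% in mouse 2, which is no limit on cells expressing the gene. The Gcg cells held 50 to 972 Gcg UMIs each. Elsewhere in the series Gcg reached 10 UMIs in 2 enteroendocrine cells, 1 acinar cell and 2 cells without a type, and 0.404% of B cell-like cells had a Gcg UMI.

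**Figure D2:**
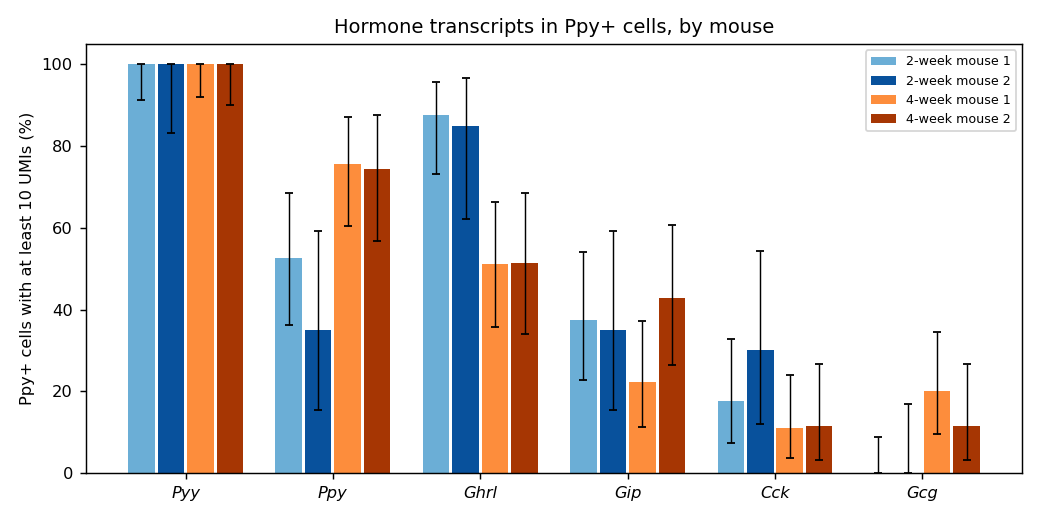
Bars give the percentage of Ppy+ cells with at least 10 UMIs of each hormone gene, 1 bar per mouse (40, 20, 45 and 35 cells), with exact 95% binomial intervals that cover counting error only. Pyy stands at 100% in each mouse, Ppy at 52.5%, 35.0%, 75.6% and 74.3%, and Gcg at 0 in both 2-week mice.

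Gcg and Gip did not reach 10 UMIs together in any cell. All 13 Gcg cells were from the 4-week mice, where 10 of 45 and 15 of 35 cells had Gip, so few shared cells could arise and nothing is read from their absence. Of the 13 Gcg cells, 11 also had Ppy and 5 had Ghrl, beside 34 of 45 and 26 of 35 of all Ppy+ cells with Ppy and 23 of 45 and 18 of 35 with Ghrl in the same mice. Cck was mostly in cells with fewer than 10 Ppy UMIs, 18 of its 22 cells, where such cells were 52 of 140. Ghrl and Ppy ran opposite to each other: over the cells of a mouse, Spearman's rho between their shares of UMIs was -0.37, -0.36, -0.58 and -0.35 (40, 20, 45 and 35 cells from 1 library each, as a description). Ppy and Gip reached 10 UMIs together in 33 cells. Ins2 stood at 0 to 37.2 CPM and reached 10 UMIs in 1 cell, and none of the 13 Gcg cells had 10 UMIs of Ins1 or Ins2. Sst reached 10 UMIs in 2 cells and Iapp, the islet amyloid peptide, in 8.

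Genes that set Ppy+ cells apart from Delta, ECL and Epsilon cells were few. Over 2-fold higher in every mouse against each of the 3 were 12 of 5698 genes with a mean of at least 20 CPM in Ppy+ cells (percent called 0.211), and over 2-fold lower were 6 of 5699 with at least 20 CPM in each of the 3 (percent called 0.105). The filter was thus taken on the side where a gene was high. Since the names were given on the same counts, this is a description with no test. Ratios are log2 of CPM plus 10, mean ± SD over 4 mice. Besides Ppy and Pyy the higher genes were Tmsb15b2, Peg10, Scg2, Cltrn, Higd1a, Inpp4b, Pdk4, Mt3, Lpl and Cck. Cck was the nearest to 2-fold (lowest log2 ratio 1.01) and was not called without cells of high UMI count (0.67) or without cells holding tuft or acinar UMIs (0.95), nor was Inpp4b in the latter (0.94). Rbp4, Igfbp7 and Uchl1 came next, with a lowest log2 ratio in any mouse of 0.92, 0.88 and 0.84.

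Scg2 makes secretogranin II, a granule protein. It was 525, 290, 466 and 443 CPM in the Ppy+ cells of the 4 mice. Its ratio was 1.82 ± 0.30 against Delta, 3.84 ± 0.89 against ECL and 2.72 ± 0.73 against Epsilon cells. Peg10, an imprinted gene expressed from the paternal copy, was 309, 385, 158 and 90.7 CPM, with means of 2.95 to 10.3 CPM in the other 3 subtypes. Tmsb15b2, a thymosin beta gene with close relatives whose reads may have been divided among them, was 681, 188, 894 and 573 CPM, with a mean of at most 29.1 CPM in the other 3 subtypes. Pdk4, which holds back pyruvate oxidation, and Lpl, lipoprotein lipase, averaged 63.5 ± 12.4 and 253 ± 128 CPM. Rbp4, which carries retinol, was 17675 ± 3790 CPM in Ppy+ cells, 7914 CPM in Delta, 7539 CPM in ECL and 1791 CPM in Epsilon cells. The lower genes were Mdk, Akr1c13, Stxbp5l, Insrr, Tubb3 and Pcyt1b. With CPM plus 50 none of these 6 was called, nor were Higd1a, Inpp4b, Pdk4, Mt3, Lpl and Cck of the higher genes, and Akr1c13 was also lost with Ppy, Pyy, Sst and Ghrl left out of the counts. Mdk, a heparin-binding growth factor, and Tubb3, a neuronal tubulin, were, of these 6, the furthest below the progenitors, the cells with Neurog3: Mdk averaged 11.8 CPM against 822 CPM, and Tubb3 18.9 CPM against 951 CPM.

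Of the endocrine transcription factors 0 of 25 measured were called higher and 0 of 23 lower, counts that cannot be told from the 0.211% and 0.105% over all genes. Here and in the next paragraph, measured means a mean of at least 20 CPM in Ppy+ cells. For genes called lower it means that level in each of Delta, ECL and Epsilon cells. The list's median ratio was -0.70 against Delta, -0.82 against ECL and -0.78 against Epsilon cells, beside -0.23, -0.32 and -0.16 over all genes. Its 36 genes summed to 4503 ± 541 CPM in Ppy+ cells and to 8430, 6599 and 7162 CPM in those 3 subtypes, lower in Ppy+ cells of every mouse, although single members went either way. Isl1, needed for many endocrine fates, averaged 714 ± 173 CPM, above ECL (4.26 ± 1.21) and below Delta cells (-1.15 ± 0.33). Etv1, an ETS factor on both the islet gamma and the gut L cell list, lay between 296 and 313 CPM, 2.14 ± 0.40 above Delta and 0.57 ± 0.41 against Epsilon cells. Neurog3, which starts the endocrine program, was 3.38, 140, 4.79 and 39.2 CPM against a mean of 2411 CPM in progenitors. Of 12 islet gamma cell genes, 7 were measured and 1 (Ppy) was called higher. That list's median ratio was -0.02, 0.26 and 0.25 against Delta, ECL and Epsilon cells. Sertm1 and Abcc9 had no UMI in any Ppy+ cell, and Aqp3 had a UMI in 1 mouse. Of 16 gut L cell genes, 7 were measured and 2 (Pyy and Cck) were called higher. The median ratio of the gut L list was 2.14, 3.19 and 1.63 against the same 3 subtypes. In Ppy+ cells 15 of 16 gut L and 10 of 12 gamma genes had a UMI, so these medians leave out members low there. Pyy and Ppy, which go with the name of the cells, are among the measured members. The 2 lists are therefore not compared by their medians. Within the gut L list Nts had no UMI, and Insl5 and Gpr119 stood at 5.07 CPM or less.

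The granin list, proteins of the hormone granule, had a median ratio of 0.48, 0.59 and 1.06 against Delta, ECL and Epsilon cells over 7 measured members, of which 1 (Scg2) was called higher, though Chga was 2.24 below ECL cells (log2 ratio -2.24). Summed, the 8 granins stood at 7772 ± 2000 CPM in Ppy+ cells and 34502 ± 8079 CPM in ECL cells, lower in each mouse, against 4696 CPM in Delta and 3248 CPM in Epsilon cells. The medians over all genes measured were -0.23, -0.32 and -0.16. Pcsk1n, an inhibitor of prohormone convertase 1, averaged 3197 ± 932 CPM, and Pcsk2, a prohormone convertase, 1229 ± 629 CPM, lowest in 2-week mouse 2 (373 CPM). The hormone exocytosis list had medians of -0.22, -0.55 and -0.09 over 17 members with 0 called, which, like the 1 of 7 granins, stands beside 0.211% called higher and 0.105% lower over all genes. Of receptors, Ffar4, which senses long-chain fatty acids, averaged 212 ± 30.2 CPM, and Galr1, a galanin receptor, 71.8 ± 25.9 CPM. Abcc8, the sulfonylurea receptor subunit of the KATP channel, averaged 313 ± 60.7 CPM, close to Delta cells (ratio 0.09 ± 0.14) and above ECL cells (3.41 ± 0.76).

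Over the 20 sums of mouse by subtype, the genes whose level followed Ppy most closely among 6500 were Igfbp7 (Spearman's rho 0.893), Ffar4 (0.881), Rbp4 (0.878), Rab3b (0.877) and Pcsk2 (0.868). The 20 points share 4 mice and 5 subtypes, so these are descriptions.

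Cells with at least 10 Ppy UMIs were then set against Ppy+ cells with fewer, within each mouse (21 and 19, 7 and 13, 34 and 11, 26 and 9 cells), with Ppy and Pyy left out of the library size. This division was chosen after the UMI counts were seen, and it is a range of 1 gene's count, not a cell type. It was run without the planned minimum of 20 cells a side, which both sides reached in no mouse (7 cells at fewest). The planned division, at a Ppy share of 0.5 of Ppy plus Pyy UMIs, left at least 20 cells a side in 4-week mouse 1 alone. There 490 of 6743 genes were over 2-fold higher on the Ppy side (percent called 7.27) and 469 of 6315 on the other (percent called 7.43), counts from 1 mouse. In that mouse 7 of 45 cells lay between shares of 0.4 and 0.6. Over 2-fold higher in all 4 mice in the Ppy cells were 11 of 6452 genes (percent called 0.17), and over 2-fold higher in the others were 5 of 6511 (percent called 0.0768). A gene entered each count by a mean of at least 20 CPM on the side where it was to be higher.

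Among the genes that went with Ppy were Shisal2b, Resp18, Tmsb15b2, Otof, Gm16124, Slfn8, Ociad2, Rian, Pex5l and Pcsk1n. With CPM plus 50, 4 genes on the Ppy side and 2 on the other were past 2-fold in every mouse, and Otof, Gm16124, Ociad2 and Rian had no UMI in the cells with little Ppy of 2 mice. Otof, Gm16124, Slfn8, Ociad2, Rian and Pex5l averaged 3.83 to 18.8 CPM in the cells with little Ppy and so passed the filter through the Ppy cells alone. Shisal2b averaged 424 CPM in the Ppy cells and 47.1 CPM in the others, a log2 ratio of 3.22 ± 1.06 over 4 mice. Resp18, an endocrine protein of the secretory pathway, averaged 3073 against 577 CPM (2.22 ± 1.02), and Pcsk1n 5691 against 1800 CPM (1.68 ± 0.67). Otof, a calcium sensor of exocytosis in hair cells, averaged 38.9 against 7.66 CPM. Pcsk2 averaged 2036 against 799 CPM (1.48 ± 0.65) and was short of 2-fold in 1 mouse (ratio 0.77).

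On the other side stood Cck, Ghrl, Slc38a5, Ffar2 and Rpgrip1l, of which the last 3 averaged under 20 CPM in the Ppy cells and passed the filter through the cells with little Ppy alone. Cck averaged 2185 CPM in cells with little Ppy and 140 CPM in the Ppy cells, a ratio of -3.76 ± 1.32. Ghrl averaged 41747 against 12528 CPM (-2.06 ± 0.97), and Ffar2, a receptor for short-chain fatty acids, had a ratio of -1.85 ± 0.93 on 61.3, 124, 28.1 and 224 CPM in cells with little Ppy. Npy1r, a receptor for peptide YY and neuropeptide Y, was 23.4 against 0.83 CPM, a ratio of -1.51 ± 0.75, and was not among the 5 (ratio -0.86 in 2-week mouse 1). Nkx2-2, an early endocrine factor, was 80.6 against 32.0 CPM, its ratio between -1.93 and -0.81, and was not among the 5 either. Cells with little Ppy had more genes detected (median 4087 against 3361) in each mouse as well as over all. Their median UMI count was 14083 against 14285 over all cells, but 16443 against 24651 in 2-week mouse 2. Pyy in the cells with little Ppy was lower, a median of 964 against 1915 UMIs, though in 4-week mouse 1 it was 1500 against 1474. Alox5ap, of the tuft list, was 0, 184, 216 and 19.1 CPM in the Ppy cells and 8.17, 4.41, 0 and 0 CPM in the others; the part of tuft transcripts in these ratios was not tested.

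**Figure D3:**
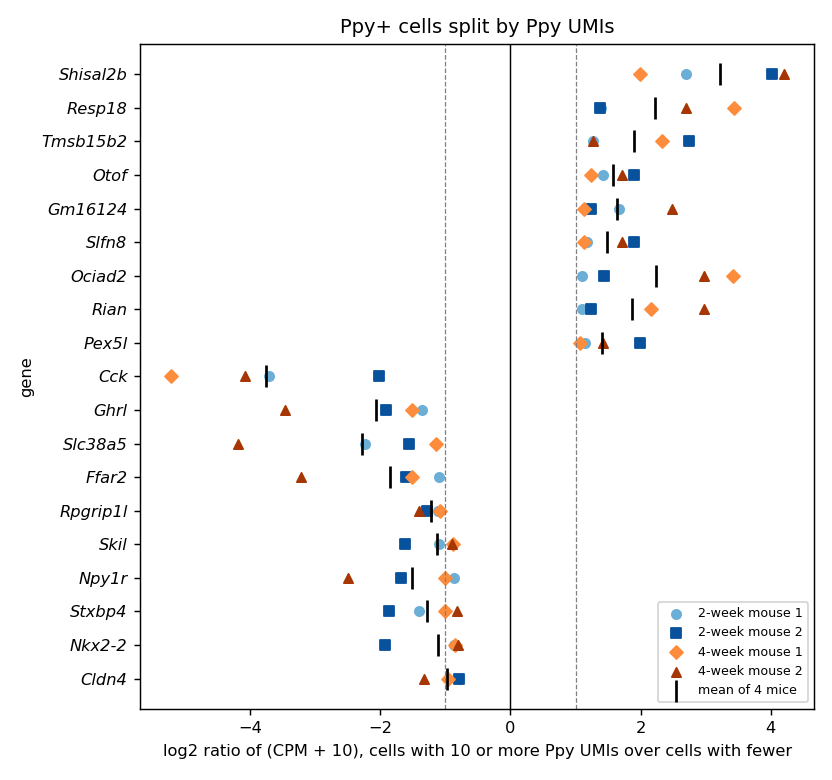
Points give the log2 ratio of CPM plus 10 between Ppy+ cells with 10 or more Ppy UMIs and those with fewer, 1 point per mouse, and black bars the mean of 4 mice; dashed lines mark 2-fold. The top 9 genes lie right of 1 in every mouse, and Cck, Ghrl, Slc38a5, Ffar2 and Rpgrip1l lie left of -1.

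Between 2 and 4 weeks 10 of 6283 genes passed an adjusted p of 0.05 in Ppy+ cells, 5 higher (percent called 0.0796) and 5 lower (percent called 0.0796) at 4 weeks (percent called 0.159 in all; edgeR's quasi-likelihood test on UMIs summed per mouse, Benjamini-Hochberg adjustment, n = 2 mice a time). At an unadjusted p under 0.05 there were 414. The 5 higher were Gcg, Pga5, Zcchc18, Ppy and Selenop, and the 5 lower were Reg2, Hhex, Cuzd1, Try10 and Cpb1. For each, both mice of one time lay beyond both of the other. Fitted without edgeR's robust option, 1 of 6283 genes passed, Gcg, with 405 at an unadjusted p under 0.05. In the Ppy+ cells of 4-week mouse 2 Xist was at 0 and the Y-linked gene Eif2s3y at 53.6 CPM, the reverse of the other mice, so a part of sex in the time effect was not tested.

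Ppy rose by 1.57 ± 0.23 (log2 fold change ± SE, edgeR adjusted p = 0.047) on the levels given above. The cells with at least 10 Ppy UMIs made up the larger part at 4 weeks (43.8% ± 12.4 against 74.9% ± 0.898, SD, n = 2 each), a difference of 31.2 percentage points (2-sided exact permutation p = 0.333, the least that 2 against 2 mice allow). Those cells were chosen by their Ppy, so their own levels are a description: 60719, 114774, 180792 and 136923 CPM, higher in both 4-week mice than in either 2-week mouse. Their median Ppy UMIs per cell were 888, 3912, 2241 and 1944, and there the times overlapped. Of Ppy plus Pyy UMIs, Ppy made up 22.0%, 33.4%, 52.7% and 42.9% (27.7% ± 8.02 against 47.8% ± 6.94, SD, n = 2 each, exact permutation p = 0.333). Pyy itself did not pass (log2 fold change 0.32 ± 0.15, edgeR adjusted p = 0.758). A time difference of Ppy over all enteroendocrine cells was known from these same mice, so the value is no independent evidence. Without the cells holding tuft or acinar UMIs past the limits above, the estimate stayed at 1.57 but the edgeR adjusted p was 0.724.

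Gcg had 0 UMIs in the Ppy+ cells of both 2-week mice and 4039 and 2156 UMIs (6446 and 4443 CPM) at 4 weeks. With 3 UMIs set in place of the 0 of both 2-week mice, the pooled 4-week CPM was 1921-fold higher (edgeR adjusted p = 8.3e-07 for Gcg over time). All of that signal came from 16 cells with a Gcg UMI. The floor counts UMIs and not cells, so this ratio is no lower bound on the change. The edgeR adjusted p was 0.348 without cells of over 2 times the median UMI count, and also 0.348 without cells holding tuft or acinar UMIs past the limits, while the fitted log2 fold change, which is no bound against a group at 0, was 14.63 and 14.58 against 14.60.

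Hhex, the factor that keeps Delta cells producing somatostatin, fell by 2.08 ± 0.27 (edgeR adjusted p = 0.0058), from 201 and 172 CPM to 47.9 and 28.9 CPM. Delta cells averaged 1557 CPM, and B cell-like cells held 126, 67.1, 47.9 and 86.8 CPM, which is no background here, since B-lineage cells can express Hhex themselves. In cells with little Ppy Hhex was 308, 315, 97.6 and 8.25 CPM, and in cells with Ppy 113, 0, 25.5 and 35.7 CPM, where the times overlapped. Without cells of over 2 times the median UMI count it fell by 3.41 (edgeR adjusted p = 0.0035). Sst, which marks Delta cells, was 471, 20.4, 3.19 and 293 CPM in Ppy+ cells. The 2 higher sums rest largely on 1 cell each, with 265 Sst UMIs in 2-week mouse 1 and 137 in 4-week mouse 2. The part of Delta transcripts in the Hhex values was not tested.

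Selenop, the selenium transport protein, was 534, 437, 966 and 1002 CPM, a log2 fold change of 1.18 ± 0.18 (edgeR adjusted p = 0.024). Zcchc18 was 33.8, 24.9, 78.2 and 113 CPM (1.83 ± 0.30, adjusted p = 0.028 by edgeR), and in the cells with Ppy it was 33.7, 34.9, 111 and 137 CPM. In cells with little Ppy it was 33.8, 16.6, 5.14 and 41.2 CPM, and the 2 groups of cells were not tested against each other.

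The remaining 5 calls are genes known from exocrine or gastric cells: Reg2, Cuzd1, Try10 and Cpb1 from acinar cells, and Pga5 as a pepsinogen. Try10 belongs to a family of near-identical trypsinogens among which reads may be divided. Cpb1 was 748, 1032, 334 and 307 CPM in Ppy+ cells and 1314, 169, 595 and 2917 CPM in B cell-like cells. Single deep cells can weigh on the B cell-like sums, whose largest cells held 16864, 58862, 55137 and 87347 UMIs against medians of 2985 to 3894. Pga5 was 20.3, 15.8, 67.0 and 74.2 CPM in Ppy+ cells and 55.2, 25.3, 78.2 and 106 CPM in B cell-like cells, higher at 4 weeks in each. Reg2 was 193, 265, 54.3 and 24.7 CPM in Ppy+ cells and 221, 164, 74.7 and 58.5 CPM in B cell-like cells, lower at 4 weeks in each. Try10 (77.7, 113, 23.9 and 24.7 CPM) and Cuzd1 (110, 199, 38.3 and 28.9 CPM) were highest in B cell-like cells of 4-week mouse 2, at 408 and 309 CPM. Of the 27 acinar enzyme genes, 25 were tested, 1 passed (Cpb1; 0.0796% of all genes passed as lower), 10 had an unadjusted p under 0.05 (414 of 6283 over all genes), and 0 of 25 had a log2 fold change above 0, with a median of -1.12 against 0.00 over all genes. Without the cells holding tuft or acinar UMIs past the limits Cpb1, Cuzd1 and Try10 did not pass, with log2 fold changes of -0.42, -1.35 and -0.48 against -1.31, -1.99 and -1.78 with them (edgeR adjusted p = 0.967, 0.724 and 0.951). Without cells of over 2 times the median UMI count Reg2 did not pass (log2 fold change -2.26 against -2.31, edgeR adjusted p = 0.214). Whether free RNA set these values was not tested.

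**Figure D4:**
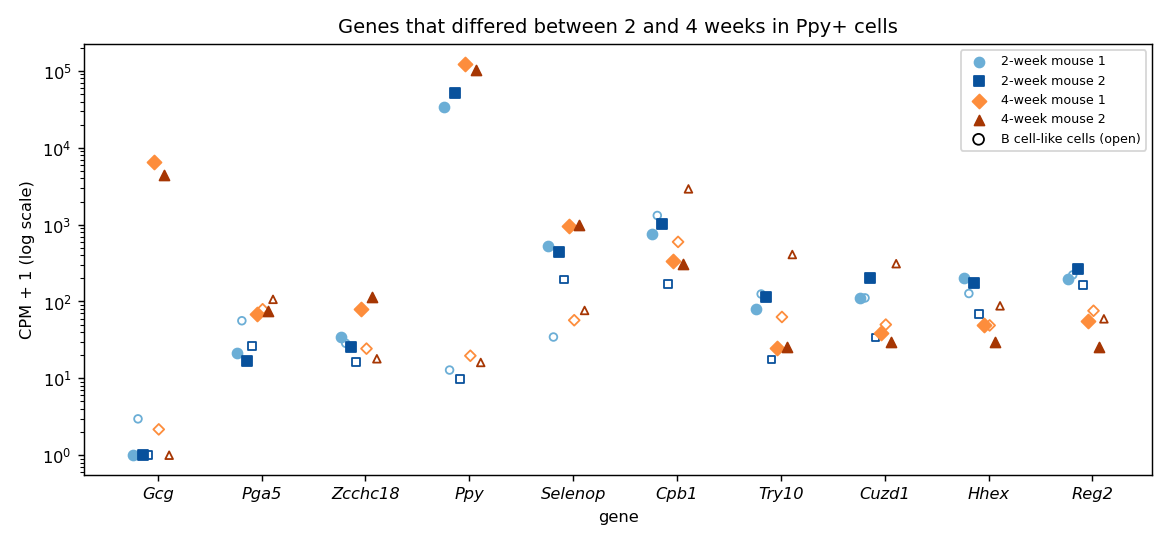
Filled symbols give CPM plus 1 (log scale) in Ppy+ cells of each mouse for the 10 genes that passed the test over time, and open symbols the same in B cell-like cells, which may express Hhex themselves. Ppy, Gcg, Selenop and Zcchc18 at 4 weeks lie above the open symbols, while for Pga5 and the acinar genes the filled and open symbols overlap.

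Counts of 0 in the lists below cannot be told from the 0.159% that passed over all genes. Of 7 tested granins 0 passed, with a median log2 fold change of 0.65; Scg5 had 0.65 ± 0.20 and Pcsk1n 0.71 ± 0.22 (edgeR adjusted p = 0.655 each). Of 25 tested endocrine transcription factors 1 passed (Hhex). Mboat4, the enzyme that acylates ghrelin, had -1.82 ± 0.43 (edgeR adjusted p = 0.285), at 86.1, 47.5, 22.3 and 10.3 CPM. Hormone exocytosis (17 tested, median -0.09), prohormone processing (7, median 0.01), excitability channels (10, median 0.04), immediate early genes (12, median 0.04) and ER folding genes (14, median 0.08) each had 0 passing. Of the interferon and MHC list 6 were tested and 0 passed.

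Whether time moved a gene differently in Ppy+ cells than in Delta, ECL and Epsilon cells of the same mice was tested over 10392 genes, of which 9 passed (percent called 0.0866; edgeR, 465 at an unadjusted p under 0.05), 2 with a higher value in Ppy+ cells (percent called 0.0192) and 7 with a lower one (percent called 0.0674). DESeq2 called 0 (44 at an unadjusted p under 0.05). The Delta, ECL and Epsilon cells of a mouse were summed together, so the mix of these subtypes enters the difference. Its part was not tested. Hhex was among the 9: it differed by -2.04 ± 0.28 (edgeR adjusted p = 0.00093), with 334, 395, 269 and 412 CPM in the other cells. Without 4-week mouse 2 the difference was -1.51 (edgeR adjusted p = 0.051). Selenop differed by 0.98 ± 0.19 (edgeR adjusted p = 0.024), with 299, 443, 339 and 460 CPM in the other cells. It did not pass when 2-week mouse 2 or either 4-week mouse was left out (differences 0.65, 0.85 and 1.11, and 1.31 without 2-week mouse 1). Selenop also did not pass without the robust option (edgeR adjusted p = 0.424) or without cells of over 2 times the median UMI count (difference 0.94, edgeR adjusted p = 0.214). The difference for Ppy was -0.05 ± 1.99 (edgeR adjusted p = 1), on 15.1, 495, 340 and 258 CPM in the other cells, so no difference of its time effect between the 2 kinds of cell was detectable. That for Gcg was not called either (edgeR adjusted p = 0.999), with 0 to 26.1 CPM in the other cells.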

How the data were processed

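UMI counts per gene and cell were deposited by the authors as raw count tables with cell type and subtype names. The submitters' processing notes list Cell Ranger 4.0.0, Seurat 3.2.3 and mm10, with no role given for each. Counting per strand is not given in the sources used here. Counts of 21140 cells and 32288 features were joined to the names and summed per mouse and subtype, and CPM is a share of all UMIs in a sum. 3′ tags were not scaled to length. Tests over genes used edgeR 4.0.16 (quasi-likelihood, robust, TMM, filterByExpr) in R 4.3.3 on sums from 2 mice a time, with Benjamini-Hochberg adjustment over all genes tested. DESeq2 1.42.0 was an alternative. The interaction fit held the mouse as a block, since each mouse gave both sums. Single values per mouse had 2-sided exact permutation tests. Subtype and within-subtype ratios (CPM plus 10) had no test. Scripts were tested on simulated data with 4-fold changes. There the time fit recovered 169 of 180 changed genes and the interaction fit 110 of 192, so the latter missed many.

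The members and the gene lists were chosen with earlier results of these data known. Genes were named by rule: list genes; for time and interaction up to 10 per direction that passed, whose mean reached 10 CPM and whose times did not overlap, or the 5 with the smallest p where fewer than 5 passed; for subtypes the 15 highest and 10 lowest by their smallest ratio; within Ppy+ cells 10 per side; and the 5 genes most like Ppy. Pcsk1n, ranked eleventh in the split, was named after its values were seen. Some genes that the rule names are not reported here. Sequences are RefSeq (GRCm38.p6) for upstream windows and GENCODE vM21 transcripts for coding stretches. Cells whose deposited type was missing entered no comparison other than B cell-like cells as a level of free RNA.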

Additional observations from a re-analysis of the deposited data

Results flagged for a closer look

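The time effect differed between Ppy+ cells and the Delta, ECL and Epsilon cells of the same mice for 9 genes (edgeR interaction, n = 2 mice a time, DESeq2 called 0). The difference was -2.04 for Hhex and 0.98 for Selenop, both described above. It was -8.31 for the tuft gene Gnat3 (0, 72.4, 0 and 2.06 CPM in Ppy+ cells, 2-week mice first), whose 2-week value rests on 32 UMIs of 2-week mouse 2. Gnat3 was not among the calls without cells holding tuft or acinar UMIs. The difference for this gene was -4.02 without 2-week mouse 2 and -4.77 without 4-week mouse 1, and did not pass in either fit. For the trypsinogens Prss1 and Gm5771, near-identical copies among which reads may be divided, it was -3.91 and -1.99. Without 2-week mouse 1 these were -1.17 and -1.15 (edgeR adjusted p = 0.931 and 0.720). Without cells holding tuft or acinar UMIs they were -2.0003 and -0.73 (edgeR adjusted p = 0.161 and 0.990), and with progenitors added to the other cells -3.30 and -1.60 (0.055 and 0.215). Without 4-week mouse 2 they were -3.08 and -1.25 (edgeR adjusted p = 0.792 and 0.800), and Prss1 also did not pass without 4-week mouse 1 (-4.11, edgeR adjusted p = 0.162). Prss1 stood at 250 CPM in 2-week mouse 1 against 4.53 to 39.2 CPM elsewhere. In B cell-like cells of 4-week mouse 2, where 1 cell held 87347 of 530048 summed UMIs, Prss1 stood at 377 CPM. The difference was -1.54 for Ifitm3, an interferon-induced membrane protein (253, 29.4, 30.3 and 12.4 CPM). For Acsl1, an acyl-CoA synthetase, it was -1.32 (97.9, 29.4, 30.3 and 24.7 CPM), and for Cdkn1a, a cell cycle inhibitor, -0.94 (552, 371, 259 and 140 CPM). It was 1.13 for the imprinted noncoding RNA Meg3 (160, 47.5, 164 and 227 CPM). Without 4-week mouse 2 the difference was -1.25 for Ifitm3, -1.58 for Acsl1, -0.75 for Cdkn1a and 0.86 for Meg3, and these did not pass. Ifitm3 and Acsl1 did not pass without 2-week mouse 1 (-1.71 and -1.62). Ifitm3, Acsl1 and Meg3 did not without 4-week mouse 1 (-2.13, -0.94 and 1.43). With progenitors added to the other cells none of these 4 passed (edgeR adjusted p = 0.055 to 0.568), nor did Selenop (0.055). The differences there were -1.90 for Ifitm3, -1.18 for Acsl1, -0.90 for Cdkn1a, 1.27 for Meg3 and 0.99 for Selenop. Without the robust option the differences were unchanged, but none of the 4 passed (edgeR adjusted p = 0.224 to 0.476), nor did Selenop (0.424). Without cells of over 2 times the median UMI count Acsl1, Meg3 and Selenop did not pass (edgeR adjusted p = 0.403, 0.214 and 0.214). For Ifitm3, Acsl1 and Prss1, 2-week mouse 1 stood apart from the other mice.

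Outside the cells with a deposited type, 24 cells held at least 100 Ppy UMIs (3, 0, 13 and 8 by mouse), where B cell-like cells held 3 at most. All 24 had at least 10 Pyy UMIs, 13 had no EYFP UMI, 1 had 10 Gcg UMIs and 2 had 10 Sst UMIs. Their median was 9342 UMIs.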

How the results depend on the processing

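Counts of genes moved with the setting. DESeq2 called 11 genes over time in Ppy+ cells among 1615 that it gave an adjusted p, and 6 of these were among the 10 of edgeR. Cuzd1 fell just short (DESeq2 adjusted p = 0.05002), and Pga5, Try10 and Zcchc18 got no adjusted p from DESeq2. Over time in Ppy+ cells (10 genes), 1 passed without the robust option, 60 without a filter on low counts, and 39 to 141 with 1 mouse left out (39 without 4-week mouse 2, 141 without 2-week mouse 1), where the lone mouse of a time is assumed to vary like the others; all 10 were among them in each of these leave-outs. For the difference of time effects (9 genes), DESeq2 called 0, no filter gave 20, adding progenitors 3, and leaving out a mouse 6 to 68 (68 without 2-week mouse 1, 6 without 4-week mouse 1). Of the 9, 5 were still called without 2-week mouse 1, 7 without 2-week mouse 2, 3 without 4-week mouse 1, 1 without 4-week mouse 2 and 2 with progenitors added. The Ppy+ share of enteroendocrine cells differed by 3.04 percentage points, by -1.82 without 2-week mouse 2, and by 7.90 without 2-week mouse 1. Genes lower than in the other subtypes (6) were 10 with CPM plus 1, 0 with CPM plus 50, 12 without cells of high UMI count, which left 3 mice, and 6 to 10 with a mouse left out (10 without 2-week mouse 2). Genes higher (12) were 6 with CPM plus 50. The division at a Ppy share of 0.5 gave 19 and 33 genes with CPM plus 50, and cuts at 0.25 and 0.75 or leaving out 4-week mouse 1 left no mouse. The division at 10 Ppy UMIs, chosen after seeing the data (11 and 5 genes), gave 4 and 2 with CPM plus 50, and 14 to 32 and 12 to 19 with a mouse left out. The causes of these shifts were not tested, except that fewer mice make the rule of every mouse easier to meet. Over the genes named and the shares of cells with a UMI of a hormone gene, 439 alternatives stayed, 63 lost the call, 5 gained it, 20 moved and 0 reversed. Lost and gained calls were counted for the edgeR and DESeq2 fits only. A subtype ratio stayed if it shifted by less than its largest SD over mice, and a share if it lay within its exact interval. Neither was checked against the 2-fold limit, so the subtype calls lost above are not among the 63. Of the counts and the values per mouse, 47 stayed, 27 moved and 1 reversed, the Ppy+ share just given. No paired analysis was possible because the mice carry no shared numbers across times. With 2 mice a time no exact test could go below 0.333, and 20 cells in 2-week mouse 2 limit what its sums can show.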
